A study of Rattus norvegicus with 10 samples.

Results

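The genes described here are the 3 TGF-β ligands *Tgfb1*, *Tgfb2* and *Tgfb3*, the receptors *Tgfbr1* and *Tgfbr2*, the signal transducer *Smad3*, the inhibitor *Smad7* and the fibrotic targets *Fn1* and *Acta2*. They were chosen by gene symbol, and every row of the deposited expression table that carries one of the 9 symbols was taken. This gave 10 rows of 32545, because *Tgfbr1* is listed under 2 identifiers. Poly-A RNA of snap-frozen kidney cortex from 5 males and 5 females of the PCK rat strain was sequenced, with 1 library per rat, to ask how the sexes differ in this model of autosomal recessive polycystic kidney disease (ARPKD). All 10 rats carry the same *Pkhd1* mutation, which arose spontaneously and causes cysts in kidney and liver, and no treatment is named. No kidney without cysts is among the libraries, so the values describe cystic kidneys of either sex and not the change from a healthy kidney. The rats were littermates from 2 litters with different parents, and the litter of each rat was not used here. Their age is 10 to 12 weeks in the study's methods and 12 to 14 weeks in the series' design text. The sample labels give the tissue as kidney, while the methods give cortex.

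TGF-β is secreted in a latent form, held by its own propeptide and tethered to the matrix by latent TGF-β binding proteins, until integrins or proteases release it. The freed ligand binds the type II receptor encoded by *Tgfbr2*, which recruits and phosphorylates the type I receptor encoded by *Tgfbr1*, and the type I receptor phosphorylates SMAD2 and SMAD3. These pair with SMAD4, enter the nucleus and switch on matrix and cytoskeletal genes, while SMAD7, itself a target, blocks the receptor. In kidney this pathway is known for driving fibroblasts and pericytes to become contractile, matrix-producing myofibroblasts, the cells behind interstitial scarring in chronic and cystic kidney disease.

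Expression is given as FPKM, fragments per kilobase of gene and scaled by a size for each library, so levels can be compared between genes of different length. That size was not the number of reads on genes (17691443 against 19556707 in female 4). Each library had 13912569 to 20285911 reads on genes, and the member rows that were tested had between 52 and 7381 reads per library. The markers of proximal tubule (7 of 7), thick ascending limb (5 of 5) and podocytes (5 of 5) had reads in every library. Female 2 stood apart, with 26.8% of its reads on mitochondrial genes against 14.3% to 19.1% in the other 9 libraries. Female 2 also had 92 reads on *Slc14a2*, a urea transporter of the inner medulla, which had 0 to 3 reads in every other library under the same identifier. Tests of the 9 genes and of the marker sums that turned on female 2 are also given without it. In bulk tissue such as this, fewer cells of a type and less RNA per cell cannot be told apart. The p-values rest on the spread between rats of each sex.

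Ranked by mean FPKM over the 10 libraries, *Tgfbr2* was the most abundant of the 9 genes (38.3 FPKM), followed by *Fn1* (29.6), *Acta2* (28.5), *Tgfb1* (20.6), *Smad3* (15.5), *Smad7* (12.3), *Tgfbr1* (11.3), *Tgfb2* (6.43) and *Tgfb3* (2.76). Neighbours in this order were compared within each library by an exact sign-flip permutation test of the log2 ratio, two-sided, with p adjusted over the 8 pairs. Of the 8 pairs, 6 differed beyond their spread. The step from *Tgfb2* down to *Tgfb3* was the largest, a mean log2 ratio of 1.23 ± 0.42 (SD, n = 10) that was above 0 in 10 of 10 libraries (exact permutation test, adjusted p = 0.00521). *Fn1* and *Acta2* could not be ordered, since *Fn1* was higher in 4 of 10 libraries (mean log2 ratio −0.03 ± 0.53, exact permutation test, adjusted p = 0.830). *Smad7* and *Tgfbr1* could not be ordered either (0.11 ± 0.28, exact permutation test, adjusted p = 0.281). With 1 library left out, 5 or 6 pairs differed, and in 8 of the 10 such tests, all but those without female 4 or female 5, *Tgfb1* and *Smad3* joined the pairs that could not be ordered. In males *Fn1* ranked 2 and *Acta2* ranked 3, in females this order was turned, and the other 7 ranks were the same in both sexes.

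**Figure D1:**
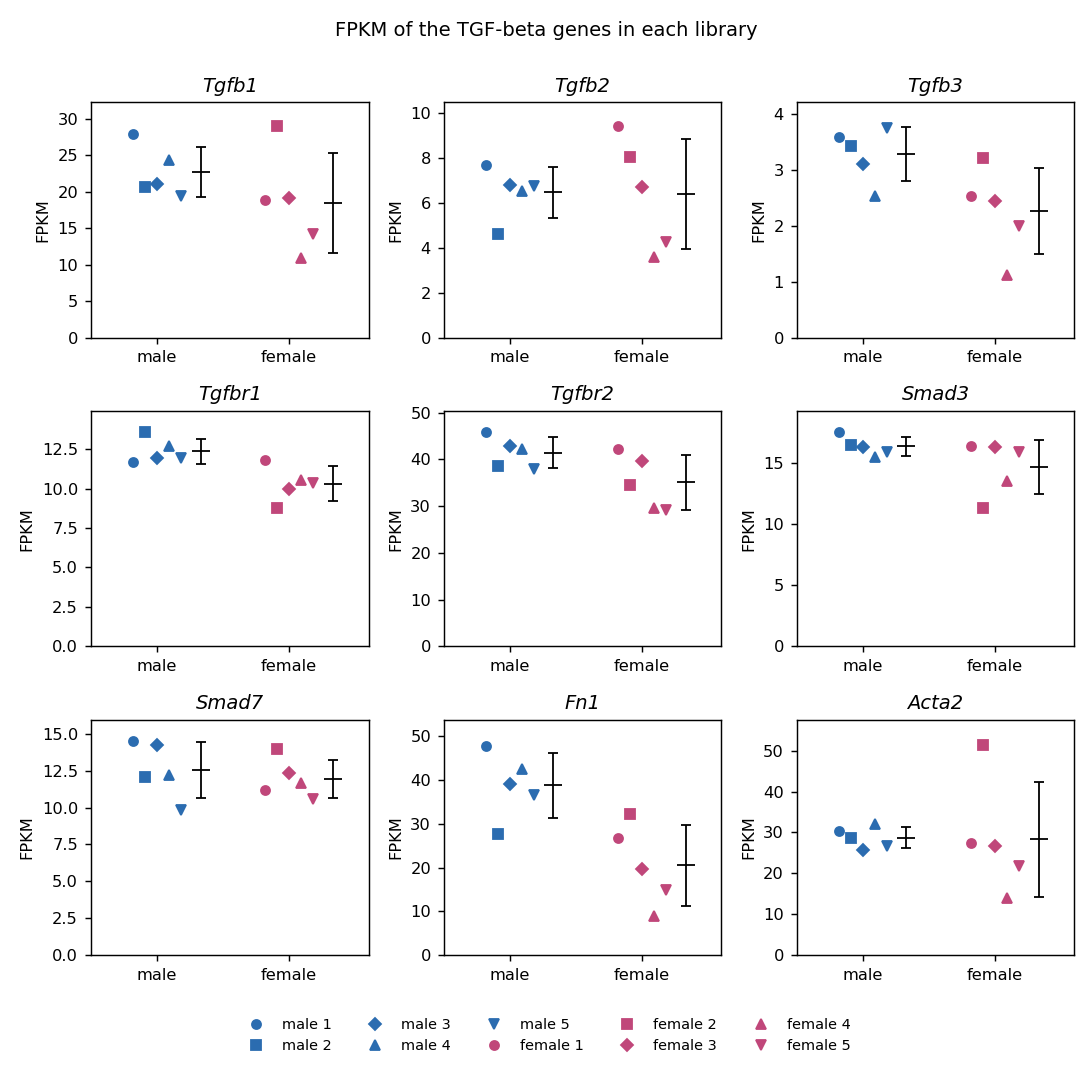
FPKM of each of the 9 genes (vertical axis, from 0, on a scale of its own in each panel) in the 5 male (blue) and 5 female (red) libraries, with a symbol for each library number and bars for the mean ± SD. The sexes overlap in every panel, at least 3 of 5 females lie below the lowest male for *Tgfb1*, *Tgfb3*, *Tgfbr1*, *Tgfbr2* and *Fn1*, and female 4 (triangle) is the lowest of all libraries in 5 panels.

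*Tgfb1* (ENSRNOG00000020652, chromosome 1, 82480195 to 82497199, plus strand of Rnor_6.0) encodes the ligand most often tied to renal fibrosis. It was at 27.9, 20.6, 21.1, 24.3 and 19.5 FPKM in males 1 to 5 and at 18.9, 29.0, 19.2, 10.96 and 14.3 FPKM in females 1 to 5. Of the 5 females, 4 lay below the lowest male and 1, female 2, lay above the highest. The means were 22.7 ± 3.42 FPKM in males and 18.5 ± 6.81 FPKM in females (SD, n = 5 each), a difference that did not pass the test (two-sided exact permutation test, p = 0.230). Without female 2, the difference was −6.85 FPKM (exact permutation test, p = 0.0159), so this gene's test turned on that library.

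*Tgfb2* (ENSRNOG00000002418, chromosome 13, 105039853 to 105141030, minus strand) encodes a ligand best known from development and from epithelial cells. It was at 7.68, 4.59, 6.78, 6.54 and 6.74 FPKM in males and at 9.40, 8.03, 6.70, 3.59 and 4.25 FPKM in females. Females spread to both sides of the males, with females 1 and 2 above the highest male and females 4 and 5 below the lowest. The means were nearly equal, 6.47 ± 1.14 FPKM in males and 6.39 ± 2.46 FPKM in females (SD, n = 5 each, two-sided exact permutation test, p = 0.952), and the 95% interval of the log2 difference ran from −0.65 to 0.48.

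*Tgfb3* (ENSRNOG00000009867, chromosome 6, 109913757 to 109935533, minus strand), the least abundant ligand, was at 3.59, 3.41, 3.10, 2.52 and 3.75 FPKM in males and at 2.53, 3.20, 2.44, 1.12 and 1.99 FPKM in females. Of the 5 females, 3 lay below the lowest male and none lay above the highest. The mean was 3.27 ± 0.484 FPKM in males and 2.26 ± 0.767 FPKM in females (SD, n = 5 each, two-sided exact permutation test, p = 0.0476). This exact p is near the threshold, and in 7 of the 10 tests that left out 1 library it was above 0.05, up to 0.0794.

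The 3 ligands were also summed, to see whether their mix differed. Summed ligand expression was 28.6 to 39.2 FPKM in males and 15.7 to 40.2 in females, with both the lowest (female 4) and the highest (female 2) among females, and without female 2 the highest was male 1. *Tgfb1* made up 65.0% to 72.9% of the sum in males and 61.4% to 72.1% in females, *Tgfb2* made up 16.0% to 22.5% and 19.95% to 30.5%, and *Tgfb3* made up 7.55% to 12.5% and 7.16% to 9.71%. The sum ranged wider among females than among males, and each ligand's share overlapped between the sexes.

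**Figure D2:**
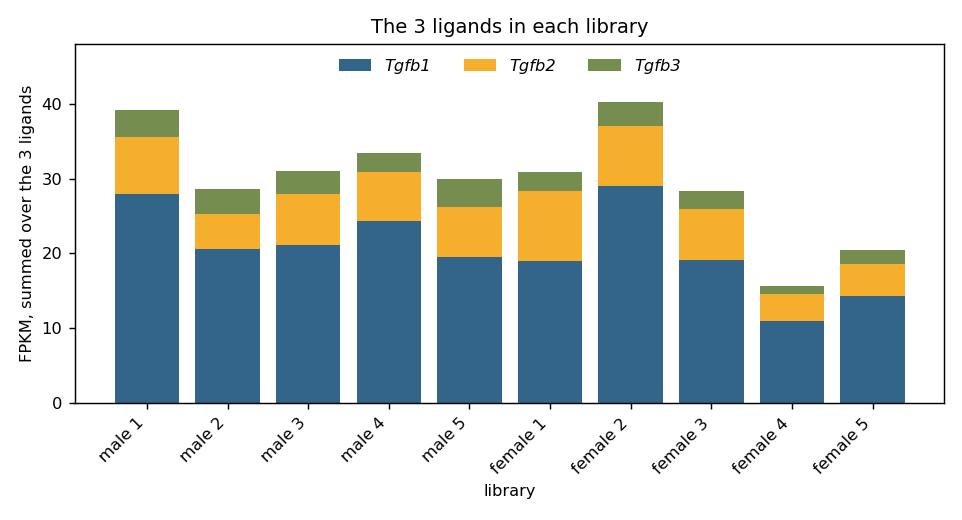
FPKM of *Tgfb1*, *Tgfb2* and *Tgfb3* stacked for each of the 10 libraries (vertical axis, summed FPKM from 0). The stacks are lowest in female 4 (15.7 FPKM) and female 5 (20.5 FPKM) and highest in female 2 (40.2 FPKM), with *Tgfb1* the largest segment in every library.

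The type I receptor gene *Tgfbr1* (ENSRNOG00000007036, chromosome 5, 63050758 to 63119635, plus strand) was at 11.7, 13.6, 11.9, 12.7 and 11.9 FPKM in males and at 11.8, 8.75, 10.01, 10.6 and 10.4 FPKM in females. Only female 1 reached the male range, and the other 4 females lay below the lowest male. The mean was 12.4 ± 0.779 FPKM in males and 10.3 ± 1.11 FPKM in females (SD, n = 5 each, two-sided exact permutation test, p = 0.0159). The exact p stayed between 0.00794 and 0.0238 under the 12 alternatives tried. The coefficient of variation over females was 10.8%, close to the 10.9% of *Smad7*, and without female 2 it was 7.44% against 6.45% for *Smad7*. A second row named *Tgfbr1* (ENSRNOG00000050760, chromosome 5, 64566804 to 64584309) had 1 read, in male 3, and 0 in the other 9 libraries, and was too low to test.

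The type II receptor gene *Tgfbr2* (ENSRNOG00000013265, chromosome 8, 124312754 to 124399494, minus strand) was at 45.8, 38.5, 42.8, 42.2 and 38.0 FPKM in males and at 42.3, 34.5, 39.7, 29.6 and 29.2 FPKM in females. Females 2, 4 and 5 lay below the lowest male, and females 1 and 3 lay within the male range. The mean was 41.5 ± 3.23 FPKM in males and 35.0 ± 5.86 FPKM in females (SD, n = 5 each, two-sided exact permutation test, p = 0.0952). Leaving out female 1 brought the exact p to 0.0317. *Tgfbr2* was 2.83 to 3.92 times as abundant as *Tgfbr1* in males and 2.80 to 3.96 times in females, so the ratio of the 2 receptor transcripts covered the same range in both sexes.

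*Smad3* (ENSRNOG00000008620, chromosome 8, 68569530 to 68678349, minus strand) carries the receptor's signal to the nucleus. It was at 17.5, 16.5, 16.3, 15.5 and 15.9 FPKM in males and at 16.4, 11.3, 16.3, 13.5 and 15.9 FPKM in females. Females 2 and 4 were low and the other 3 females lay within the male range. The mean was 16.3 ± 0.755 FPKM in males and 14.7 ± 2.22 FPKM in females (SD, n = 5 each, two-sided exact permutation test, p = 0.167), and without female 2 the difference was −0.843 FPKM in place of −1.68 FPKM.

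*Smad7* (ENSRNOG00000018359, chromosome 18, 71395830 to 71424157, plus strand) encodes the inhibitory SMAD that targets the receptor for degradation. It was at 14.5, 12.1, 14.2, 12.2 and 9.85 FPKM in males and at 11.2, 14.0, 12.3, 11.7 and 10.6 FPKM in females. All 5 females lay within the male range, the only tested member of which this was so. The means were 12.6 ± 1.90 FPKM in males and 12.0 ± 1.302 FPKM in females (SD, n = 5 each, two-sided exact permutation test, p = 0.563), and the 95% interval of the log2 difference ran from −0.33 to 0.20. The ratio of *Smad7* to *Smad3* was 0.619 to 0.871 in males and 0.668 to 1.24 in females, with the highest value in female 2.

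*Fn1* (ENSRNOG00000014288, chromosome 9, 78900103 to 78969078, minus strand) encodes fibronectin, a glycoprotein of the early scar matrix. It was at 47.9, 27.6, 39.2, 42.6 and 36.6 FPKM in males and at 26.8, 32.3, 19.7, 8.99 and 14.8 FPKM in females. Only female 2 reached the male range, and female 4 was at less than the level of any other library, with 1337 reads on the gene. The mean was 38.8 ± 7.53 FPKM in males and 20.5 ± 9.27 FPKM in females (SD, n = 5 each), 0.529 times the male mean (two-sided exact permutation test, p = 0.0159). The exact p stayed between 0.0159 and 0.0317 under the 12 alternatives tried. The unnamed gene AABR07068042.1 overlaps *Fn1* on the other strand and had 0 to 3 reads per library.

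*Acta2* (ENSRNOG00000058039, chromosome 1, 252537615 to 252550394, minus strand) encodes smooth muscle α-actin, made by vessel walls and by myofibroblasts. It was at 30.4, 28.5, 25.7, 32.2 and 26.8 FPKM in males and at 27.4, 51.5, 26.7, 14.1 and 21.8 FPKM in females. Female 2 was far above every other library, females 4 and 5 were the lowest, and the remaining 2 females lay within the male range. The means were 28.7 ± 2.61 FPKM in males and 28.3 ± 14.0 FPKM in females (SD, n = 5 each, two-sided exact permutation test, p = 0.952). The coefficient of variation was 9.09% over males and 49.5% over females, and without female 2 the difference was −6.23 FPKM (exact permutation test, p = 0.0635). The coding sequence of *Acta2* is close to that of other actin genes, and how the counting treated reads that fit several genes is not given in the sources used here, so its level is uncertain to that extent.

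The fit across all genes used limma on log2(FPKM + 0.1) for the 17631 genes averaging 0.1 FPKM or more, and fold changes are of females over males on that scale. At an adjusted p (Benjamini-Hochberg over all genes) no higher than 0.05, 2.4% of all genes tested were called and 0 of the 9 members were, and limma-voom on the reads behind the FPKM called 0 members too. When an absolute log2 fold change of 1 or more was required as well, 1.32% of all genes and 0 of the 9 members were called. Without adjustment, 4 members were lower in females at a limma p of at most 0.05, against 8.07% of all genes, namely *Fn1*, *Tgfbr1*, *Tgfb3* and *Tgfbr2*. The exact permutation test put 3 of them, *Fn1*, *Tgfbr1* and *Tgfb3*, at p of at most 0.05 and lower in females, against 7.38% of all genes. None of the 9 had male and female ranges that did not overlap, where 5.1% of all genes did.

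All 9 log2 fold changes were below 0, as were 51.2% of those of all genes, and their median was −0.25 against −0.01 over all genes. The member with the largest difference was *Fn1*, at −1.03 (standard error 0.30, 95% interval −1.69 to −0.36, limma adjusted p = 0.118). *Tgfb3* followed at −0.58 (standard error 0.24, limma adjusted p = 0.267), or −0.36 without female 4. *Tgfbr1* at −0.27 had the smallest standard error of the 9, 0.09 (limma adjusted p = 0.175). *Tgfb1* was at −0.36, *Tgfbr2* at −0.25 and *Smad3* at −0.17, with limma adjusted p of 0.477, 0.313 and 0.493. Without female 2, *Tgfb1* was at −0.54 and *Smad3* at −0.08, and without female 4, *Tgfb1* was at −0.19. *Acta2* (−0.15), *Tgfb2* (−0.09) and *Smad7* (−0.06) lay nearest to 0, and the direction of *Acta2* and *Tgfb2* turned when female 4 was left out. Leaving out 1 library moved *Smad7* to between −0.15 (without male 5) and −0.01 (without male 1). Without female 2, *Fn1* passed the adjusted threshold at −1.22 (limma adjusted p = 0.0468), the one change of a member's call in 20 alternative fits. The limma adjusted p of *Fn1* ran from 0.0468 to 0.251 over these fits.

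**Figure D3:**
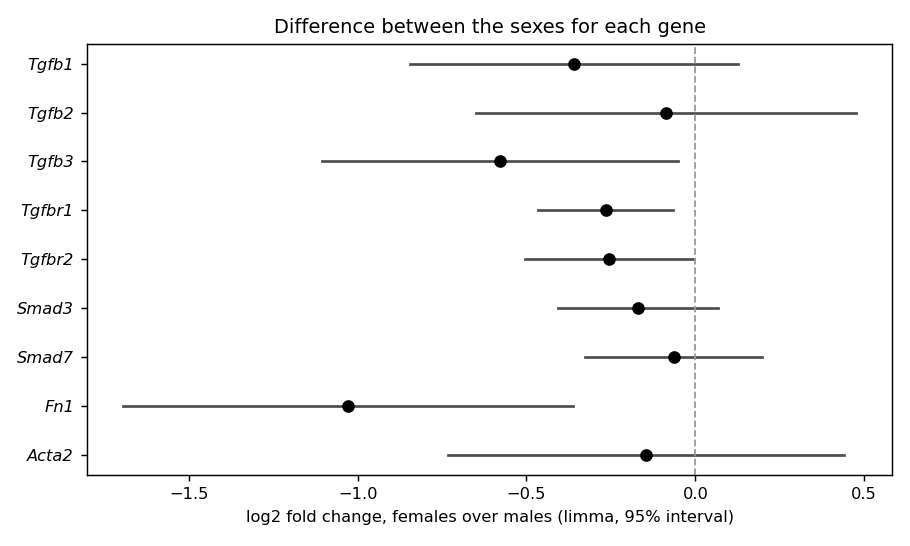
Log2 fold change of females over males for the 9 genes (horizontal axis) from limma, with points for the estimate, bars for the 95% interval and a dashed line at 0. All 9 points lie left of 0 and the intervals of *Fn1*, *Tgfbr1*, *Tgfb3* and *Tgfbr2* do not reach 0, but none of the adjusted p was at most 0.05.

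The 9 genes did not spread over the libraries alike. Female 4 was below the 10-library mean of every member on the log2 scale and was the lowest library for 5 of the 9 (*Tgfb1*, *Tgfb2*, *Tgfb3*, *Fn1* and *Acta2*), with a median deviation of −0.77. Over all genes tested, female 4 also lay far from the other libraries. Its mean distance to them on the first 2 principal components was 84.1, second to 96.5 for female 2. Female 5 was below the mean for 8 of the 9, with a median deviation of −0.37. Male 1 was above the mean for all 9 and the highest library for 4. Female 2 was highest for *Tgfb1* and *Acta2* and lowest for *Tgfbr1* and *Smad3*, so it departed in both directions. Across the 5 females, the coefficient of variation was 34.0% to 49.5% for the 3 ligands, *Fn1* and *Acta2*, and 10.8% to 16.7% for the receptors and SMADs. Without female 2 these ranges were 25.0% to 44.2% and 6.45% to 19.2%, and the value moved from 49.5% to 27.3% for *Acta2*, from 15.1% to 8.83% for *Smad3* and from 10.9% to 6.45% for *Smad7*.

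**Figure D4:**
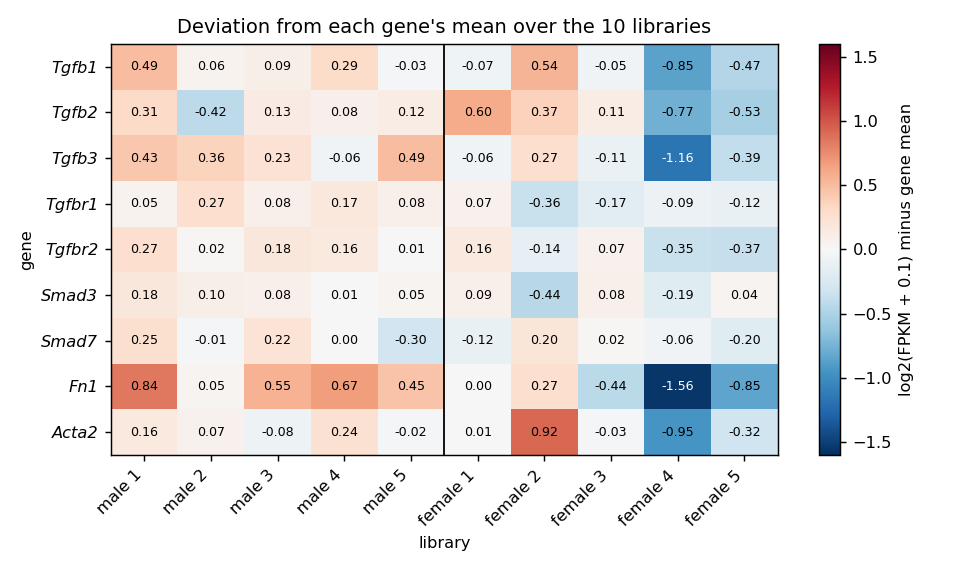
Deviation of log2(FPKM + 0.1) from each gene's mean over the 10 libraries (colour and printed value), with genes as rows and libraries as columns, males left and females right of the line. Female 4 is below the mean in all 9 rows, down to −1.56 for *Fn1*, and female 2 is high for *Acta2* (0.92) and low for *Smad3* (−0.44).

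Among the 36 pairs of members, *Tgfb1* and *Acta2* were the most alike across the 10 libraries (Pearson's r of log2 values 0.914), followed by *Tgfb1* and *Fn1* (0.896) and *Tgfb3* and *Fn1* (0.881). Without female 2 the order was *Tgfb1* and *Fn1* (0.949), *Tgfb1* and *Acta2* (0.933) and *Tgfb1* and *Tgfbr2* (0.915), so the ranking of pairs turned on that library. The values in a pair share their library, so r is given as a description only. Across the 12030 genes averaging 1 FPKM or more, those most like *Fn1* were *Pxdn*, a matrix-bound peroxidase (r = 0.986), and *P2ry2*, a purinergic receptor (r = 0.979). Those most like *Tgfb1* were *Elk3* and *Lrrc8c* (r = 0.973 each), and *Zfp217* (r = 0.970) and *Map9* (r = 0.949) were most like *Tgfb2*. For *Tgfb3* they were *Gna15* (r = 0.985) and *Cp*, which encodes ceruloplasmin (r = 0.981). *Nup155* and the claudin gene *Cldn2* (r = 0.937 each) were most like *Tgfbr1*, and *Zbtb42* (r = 0.964) and *Akap13* (r = 0.959) were most like *Tgfbr2*. *Ocrl* (r = 0.936) and *Atp7a* (r = 0.932) were most like *Smad7*, and *Tshz2* (r = 0.963) and *Gnai2* (r = 0.962) were most like *Acta2*. For *Smad3* they were *Bik* (r = 0.955) and *Rps6ka4* (r = 0.949), which without female 2 had r = 0.829 and 0.814 and ranked 216 and 277. Of these 18 genes, 3 stayed among the 2 most alike when female 2 was left out.

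The sequences before the start sites of *Tgfb1* and *Acta2* are shown because this pair ranked 1 of 36 for likeness across all libraries and 2 without female 2. They are the 250 bases upstream in RefSeq's rat build GRCr8, on the gene's strand, 5′ to 3′, *Tgfb1* from chr1:90324062-90324311 (plus) and *Acta2* from chr1:241172504-241172753 (minus). Capitals mark matches to the CArG box, the site known to bind serum response factor, with at most 1 inner base other than A or T, and to CAGAC, the core that SMAD3 and SMAD4 are known to bind, on either strand.
Tgfb1: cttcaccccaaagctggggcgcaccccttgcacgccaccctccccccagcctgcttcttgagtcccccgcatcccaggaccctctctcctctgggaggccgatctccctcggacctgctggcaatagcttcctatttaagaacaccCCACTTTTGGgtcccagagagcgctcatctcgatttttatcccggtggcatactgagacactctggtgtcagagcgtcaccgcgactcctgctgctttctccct
Acta2: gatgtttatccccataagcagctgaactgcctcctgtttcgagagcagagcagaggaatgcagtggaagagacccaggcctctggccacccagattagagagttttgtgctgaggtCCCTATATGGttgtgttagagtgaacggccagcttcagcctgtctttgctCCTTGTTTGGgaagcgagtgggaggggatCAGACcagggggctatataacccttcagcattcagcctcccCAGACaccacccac

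In the *Acta2* window a CArG box starts 134 bases and another 84 bases before the start, and CAGAC or its reverse complement starts 55 and 14 bases before it. The *Tgfb1* window holds 1 CArG match, which starts 104 bases upstream, and no CAGAC. A window was found for 8 of the 9 members, and *Tgfbr2* was the other member with a CArG match, 76 bases upstream, while CAGAC was found in the *Acta2* window alone of the 8. Among all 33469 windows of the same length, 8.08% hold a CArG match of this kind and 42.9% hold CAGAC. The letters GGGCGG, which the factor SP1 is known to bind, occur 3 times for *Tgfbr1*, 2 times for *Smad7* and once each for *Tgfbr2* and *Smad3*, and in 30.5% of all windows. TATAAA occurs in none of the 8 windows and in 12.9% of all windows. The receptor and SMAD windows had 58.0% to 78.0% G and C, against 48.8% to 61.6% for the 3 ligands and *Acta2*. These matches describe letters, on another build than the expression table, and show no binding.

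The rest of the pathway was read from 5 lists with 47 genes, of which 46 were tested. In the limma fit 1 of the 46 was higher in females (1.26% of all genes were), 2 were lower (1.14% of all genes were) and 43 did not pass. The first list holds the genes that keep TGF-β latent or release it, with a median log2 fold change of −0.27 over 11 genes. *Itgb6* (ENSRNOG00000008346), the epithelial integrin subunit that frees TGF-β from its latent complex, was at 33.4, 34.6, 37.8, 25.5 and 28.5 FPKM in males and at 50.9, 51.7, 43.7, 48.1 and 50.5 FPKM in females. Every female lay above every male, as for 2.5% of all genes. The mean of *Itgb6* rose from 32.0 ± 4.94 to 49.0 ± 3.26 FPKM (SD, n = 5 each), or by 0.63 on the log2 scale (SE 0.11), with a limma adjusted p of 0.0117. *Ltbp1* (ENSRNOG00000033090), a latent TGF-β binding protein, was at 6.31, 5.39, 5.38, 6.17 and 6.81 FPKM in males and at 3.38, 4.64, 4.35, 3.05 and 3.36 FPKM in females. Every female lay below every male, as for 2.6% of all genes. The mean of *Ltbp1* fell from 6.01 ± 0.621 to 3.75 ± 0.694 FPKM (SD, n = 5 each), or by 0.68 on the log2 scale (SE 0.13), with a limma adjusted p of 0.0236. *Ltbp2*, of the same family, had the largest difference of the list at −1.17 but did not pass (limma adjusted p = 0.188), and it was at −0.77 without female 4. The call of *Ltbp1* was lost in 7 of 20 alternative fits and that of *Itgb6* in 1.

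The list of 13 further targets and matrix genes had 13 of 13 log2 fold changes below 0, with a median of −0.80, and 1 gene past the adjusted threshold. *Col3a1* (ENSRNOG00000003357), which encodes a fibrillar collagen of the interstitium, was at 104, 72.8, 75.7, 74.1 and 82.5 FPKM in males and at 40.3, 47.1, 58.2, 18.3 and 33.6 FPKM in females. All 5 females were below all 5 males, as for 2.6% of all genes, and 3 of the 13 genes had such ranges. The mean of *Col3a1* fell from 81.8 ± 13.1 to 39.5 ± 14.9 FPKM (SD, n = 5 each), or by 1.14 on the log2 scale (SE 0.26), with a limma adjusted p of 0.0477. This call is at the threshold and was lost in 11 of 20 alternative fits, with limma adjusted p of up to 0.119. *Col1a2*, which encodes a chain of type I collagen, had the largest difference of the list, −1.42 (16.8 ± 3.23 against 7.12 ± 4.22 FPKM, limma adjusted p = 0.0777). By the exact permutation test 7 of the 13 were lower in females at p of at most 0.05 and none was higher, where 7.38% and 7.45% of all genes were. Female 4 was the lowest library for 12 of the 13 genes, as it was for *Fn1*. Female 4 was also the lowest for 8 of the 9 macrophage and 6 of the 7 lymphocyte markers described below, and for 0 of the 7 of the proximal tubule. In what share of all genes it was the lowest was not counted.

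The receptors and the SMADs outside the 9 genes showed no called difference. The 6 other receptors and co-receptors had a median log2 fold change of 0.02, with the activin-type receptor genes *Acvrl1* (−0.27, limma adjusted p = 0.334) and *Acvr1* (−0.25, limma adjusted p = 0.317) the farthest from 0. The 11 tested genes of other SMADs and their regulators had a median of −0.02, with *Skil*, a repressor of SMAD transcription (−0.30, limma adjusted p = 0.294), and the common partner *Smad4* (−0.13, limma adjusted p = 0.617, and −0.23 without male 5 or −0.08 without male 3) the farthest from 0 in the fit of all libraries. *Smad9* had 0 reads in all 10 libraries. The 5 extracellular antagonists had a median of −0.52, and the 2 with the largest differences, both matrix proteoglycans that bind TGF-β, pointed in opposite directions. *Dcn*, which encodes decorin, was at −0.80 (limma adjusted p = 0.267), or −0.49 without female 4, and *Fmod*, which encodes fibromodulin, was at 0.80 (0.777 ± 0.141 against 1.45 ± 0.423 FPKM, limma adjusted p = 0.0874). The 5 females all lay above the 5 males for *Fmod*, as for 2.5% of all genes, and this gene had 33 to 119 reads per library. Over the alternative fits with all libraries, the log2 fold change of *Fmod* was 0.45 to 0.91. It passed in 1 of the 20 alternative fits, with quantile normalization (limma adjusted p = 0.0370).

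**Figure D5:**
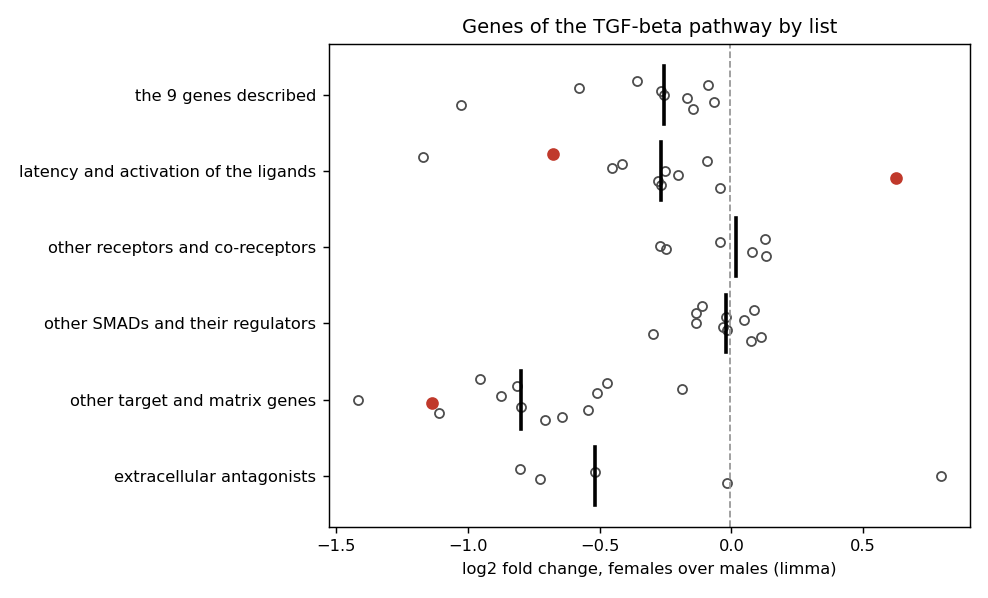
Log2 fold change of females over males (horizontal axis, limma) for each tested gene of the 9 described and of the 5 pathway lists (rows), with filled points for an adjusted p of at most 0.05, vertical bars for the median of each row and points spread vertically only to be seen. The targets and matrix genes lie left of 0 in full, with a median of −0.80, while the other receptors and the other SMADs centre on 0.02 and −0.02.

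Marker genes of kidney cell types were summed in each library to show which cells' RNA moved with the members. The 9 fibroblast markers, all with reads in every library, summed to between 318 and 423 FPKM in males and between 135 and 328 in females (two-sided exact permutation test, p = 0.0159), with female 4 the lowest, as for *Fn1*. Without female 2 the 2 ranges did not overlap (exact permutation test, p = 0.00794, the smallest that 5 against 4 libraries allow). *Col1a1*, *Col1a2* and *Col3a1* are in both the fibroblast list and the list of targets, and *Dcn* is in the fibroblast list and among the antagonists. The smooth muscle and pericyte markers, 10 of 11 with reads in every library, summed to between 176 and 217 FPKM in males and between 86.8 and 251 in females (exact permutation test, p = 0.222). *Tagln* is in both this list and the list of targets, and with a mean of 109 FPKM in males it weighed heavily in the sum. Female 2 was the highest and female 4 the lowest of all libraries in this sum, as in *Acta2*. The other 4 females all lay below the lowest male, and without female 2 the sum was lower in females by the test (−62.4 FPKM, exact permutation test, p = 0.00794). The macrophage markers (9 of 9) summed to between 591 and 1249 FPKM in males and between 353 and 790 in females (exact permutation test, p = 0.198). The lymphocyte markers (7 of 7) summed to 15.3 to 33.5 and 6.32 to 35.5 FPKM (exact permutation test, p = 0.310). The mean of *Lyz2* alone was 618 FPKM in males and 454 in females, most of the macrophage sum. Without female 2 the p was 0.119 for macrophages and 0.0317 for lymphocytes (exact permutation tests). The part of these cells in the members' values was not tested.

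The epithelial and vascular markers were summed in the same way. The sum was 1591 to 2705 FPKM in males and 1390 to 2887 in females for proximal tubule (exact permutation test, p = 0.889), with the lowest value in female 2 and the highest in female 4. For the thick ascending limb it was 1113 to 1646 and 1217 to 1843 FPKM (exact permutation test, p = 0.0556, and p = 0.0397 without female 2), and for the collecting duct, the main source of cysts in this model, 290.0 to 471 and 335 to 531 FPKM (exact permutation test, p = 0.119). For podocytes it was 125 to 166 and 117 to 197 FPKM (exact permutation test, p = 0.246), for endothelium 106 to 135 and 111 to 158 FPKM (exact permutation test, p = 0.214), and for inner medulla 24.0 to 35.8 and 24.9 to 38.5 FPKM (exact permutation test, p = 0.889). For inner medulla 3 of the 5 rows had reads in every library, female 2 was the highest, and *Akr1b1*, at a mean of 27.1 FPKM in males and 24.8 in females, made up most of the sum. *Umod*, at a mean of 985 FPKM in males and 1265 in females, made up most of the thick ascending limb sum. In the limma fit, 4 of the 33 tested genes of these 6 lists were higher in females (1.26% of all genes were) and 1 was lower (1.14% of all genes were). The mean FPKM of the endothelial *Vwf* was 9.38 ± 3.05 in females against 3.93 ± 0.604 in males (SD, n = 5 each, limma adjusted p = 0.0118). The log2 difference was 0.64 for *Kcnj1* of the thick ascending limb, 0.72 for *Cubn* of the proximal tubule, 0.44 for *Avpr2* of the collecting duct and −0.62 for *Ptger3* of the thick ascending limb. Their limma adjusted p were 0.00263, 0.0467, 0.0469 and 0.0435. The lists as a whole moved less: the 7 endothelial markers had a median log2 fold change of 0.03, with 2 below 0. The 7 of the proximal tubule had a median of 0.16, with 3 below 0, the lowest being *Aqp1* at −0.56 (limma adjusted p = 0.233). The medians were 0.35 for the thick ascending limb, with 1 of 5 below 0, and 0.37 for the collecting duct, with 0 of 5 below 0. These sums, like those of the interstitial cells, stand beside the members as measurements, and their part in the differences was not tested.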

How the data were processed

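Groups were taken from the sample labels. Reads were trimmed with fastp, mapped with HISAT2 2.0.5 to the Ensembl build Rnor_6.0 and expressed as FPKM, which the authors deposited as 1 table of 32545 genes with gene lengths in bases. The submitters' processing notes also name featureCounts 1.5.0-p3 and StringTie 1.3.3b, and strand use in the counting is not given in the sources used here. FPKM multiplied by gene length and by the library size that the FPKM imply came to a whole number of reads, within 0.01 reads, in 100% of cases, and limma-voom on these reads, an alternative, called 504 genes where limma on FPKM called 424. Read numbers speak to counting error alone, because no molecular identifiers mark duplicate molecules.

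limma 3.58.1 in R 4.3.3 (lmFit, eBayes with trend) was run on log2(FPKM + 0.1), which understates changes of low genes. The exact permutation tests used the mean FPKM of 5 against 5 libraries, two-sided, with 0.00794 the smallest p possible. Other steps ran in Python 3.11.15 with scipy 1.17.1, pandas 2.3.3 and numpy 2.4.6, and the procedures were tested on simulated data. The 9 members and all lists were chosen with earlier results of these data known. Genes named are the members, pathway list genes past the adjusted threshold, the 2 of each pathway list with the largest difference (mean of at least 1 FPKM) and the 2 most like each member. *Slc14a2*, *Smad9*, *Aqp1*, the markers that weighed most in a sum, the fibroblast markers in no other list, the called epithelial and vascular markers and genes shared between lists fall outside this rule. They were chosen after their values were seen. *Ccn2* was matched as *Ctgf*. Promoter windows came from RefSeq (GRCr8). The alternatives were leaving out each library, a replicate block, limma-voom, robust or trendless eBayes, quantile or median-ratio normalization, a filter at 1 FPKM or none, and pseudocounts of 0.01 and 1. Marker sums, coefficients of variation and member pairs without female 2 were added after the data were seen.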

Additional observations from a re-analysis of the deposited data

How the results depend on the processing

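With the replicate number as a block, 231 genes in place of 424 passed the adjusted threshold and 0 of the pathway list genes in place of 3. Same-numbered libraries deviated together with correlations of −0.10 to 0.07 over all genes tested. These values show no pairing by number but cannot exclude one, since the litter of each rat was not used. With a pseudocount of 1, 137 genes in place of 232 passed both thresholds. With limma-voom, 5 list genes passed (*Col1a2*, *Col3a1*, *Fbn1*, *Itgb6* and *Ltbp1*). Median-ratio scaling changed no call and was hardly a test, since its factor was 1.01 in every library. Leaving out 1 library gave 266 (without female 5) to 550 (without female 2) genes past the adjusted threshold, 176 to 262 past both thresholds, 0 to 1 members and 1 to 6 list genes. The 6 were without female 2, and the 1, *Itgb6*, was without male 1, male 4, male 5, female 1 or female 5. The log2 fold change of *Fn1* ran from −1.22 to −0.77, that of *Tgfb2* from −0.25 to 0.09 and that of *Acta2* from −0.39 to 0.07. Of *Tgfb2*, it was 0.0939 without female 4 and 0.0344 without female 5, and of *Acta2* 0.0724 without female 4. The difference in mean FPKM ran from −6.85 to −2.34 for *Tgfb1*, from −0.825 to 0.628 for *Tgfb2*, from −1.25 to −0.733 for *Tgfb3*, from −8.22 to −4.95 for *Tgfbr2* and from −6.23 to 3.12 for *Acta2*. Of *Tgfb2*, it was 0.231 without male 1, 0.00591 without male 3, 0.628 without female 4 and 0.463 without female 5, and of *Acta2* 0.428 without male 4, 3.12 without female 4 and 1.18 without female 5. Of the 18 genes most like a member, 3 stayed so without female 2. The cause of these changes was not tested. The order of levels within 1 sex was not tested, since the sign-flip test chosen for it cannot pass the threshold with 5 libraries. Depth limits *Tgfb3*, at 52 to 166 reads, and the second *Tgfbr1* row, at 1 read in all, more than the other members.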

Other observations

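Ratios between members were computed beside the report's comparisons, as values with no test. *Fn1* over *Tgfb1* was 1.34 to 1.88 in males and 0.820 to 1.41 in females, where the lowest male, male 2, lay below the highest female, female 1. *Acta2* over *Fn1* was 0.634 to 1.03 in males and 1.02 to 1.59 in females, and the overlap again came from male 2 and female 1. In 4 of 5 females *Fn1* was lower relative to *Acta2* than in any male.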
